A study of Mus musculus with 20 samples.

Results

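The cytosolic ribosomal protein genes described here are the 81 genes whose symbols begin with Rpl, Rps or Rplp followed by a number, pseudogene symbols left out, and whose estimated count reached at least 100 in every library. The symbol pattern matched 88 of the 35204 genes in the deposited table. Of the 81 genes, 48 carry symbols of the large (60S) subunit and 33 symbols of the small (40S) subunit, 2 of the latter (Rps4l and Rps12l1) annotated as pseudogenes. Members were thus selected on their counts, so their levels are given as a description. Just inside it stood Rpl27 with 305 to 773 counts, Rpl12 with 567 to 1451 and Rps12 with 659 to 1355, and just outside it stood Rps3a3 with 10 to 30 counts. The other 6 symbols left out, among them Rps3a2 and Rpl10l, were listed at 0 in at least 1 library, and 78 of the members had at least 1000 counts in every library.

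RNA came from a piece of terminal ileum of female C57BL/6 mice that were 7 weeks old when feeding began and ate their diet for 3 weeks. CD mice ate an amino acid-based control diet and TDD mice the same kind of diet without tryptophan. SPF mice kept their microbiota, and ABX mice received ampicillin, vancomycin, gentamycin, metronidazole and neomycin. Each of the 4 groups (CD, TDD, CD+ABX and TDD+ABX) held 5 mice, and poly-A RNA was sequenced from each.

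The cytosolic ribosome is built from ribosomal RNA and a set of proteins, nearly all present in a single copy, that assemble in the nucleolus and join in the cytosol as a small subunit, which reads the mRNA, and a large subunit, which forms the peptide bond. Many mRNAs for these proteins begin with an oligopyrimidine tract, a run of C and T at their very 5′ end, through which mTORC1, a kinase complex that senses amino acids, controls their translation. Epithelial crypt cells, Paneth cells and plasma cells of the ileum are known for high rates of protein synthesis.

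RefSeq starts on GRCm38.p6 were at hand for 59 of the 81 members, 50 of them with 1 start. The windows below run from 60 bases before to 30 bases after such a start, so 90 bases each, with runs of 6 or more C or T within 20 bases of the start in capitals. They show 3 members with 1 start and a small adjusted p for diet in SPF mice (Rps25, Rpl23 and Rpl36a). Rpl17, with the smallest adjusted p of all members, and Rpl30 ranked before Rpl36a and are not shown. Also shown are the pair Rps27 and Rps27l, which differed in direction, and Rpl7l1. Rps27l had 2 starts listed, and the one further upstream is shown.
Rps25: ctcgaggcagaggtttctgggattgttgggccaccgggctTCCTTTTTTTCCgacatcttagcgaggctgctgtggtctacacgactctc
Rpl23: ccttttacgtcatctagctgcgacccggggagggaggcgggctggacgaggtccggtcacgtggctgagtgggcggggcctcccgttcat
Rpl36a: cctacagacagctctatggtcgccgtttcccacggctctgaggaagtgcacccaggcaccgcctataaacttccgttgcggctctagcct
Rps27: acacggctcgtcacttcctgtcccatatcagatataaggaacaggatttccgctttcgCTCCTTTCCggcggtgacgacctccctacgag
Rps27l: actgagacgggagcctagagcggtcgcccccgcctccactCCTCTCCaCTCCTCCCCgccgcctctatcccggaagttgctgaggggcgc
Rpl7l1: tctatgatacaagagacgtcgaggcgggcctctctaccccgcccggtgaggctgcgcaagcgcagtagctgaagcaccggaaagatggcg
They lie at chr9:44407654-44407743 (plus strand, Rps25), chr11:97782410-97782499 (minus, Rpl23), chrX:134585594-134585683 (plus, Rpl36a), chr3:90213619-90213708 (minus, Rps27), chr9:66946026-66946115 (plus, Rps27l) and chr17:46782627-46782716 (minus, Rpl7l1).

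Such a run was found in 44 of 70 member promoters (62.9%), where 37.5% of all 32851 RefSeq promoters held one. Over the whole windows of 300 bases, from 250 before to 50 after the start and on both strands, CCGGAAG, letters that Ets-family factors such as GABP are known to bind, stood in 25 member promoters (35.7%, against 8.86% of all promoters). GGGCGG, a Sp1 motif, stood in 43 (61.4%, against 35.7%), and AAGATGGC, a YY1 motif, in 8 (11.4%, against 2.75%). TATAAA, the TATA box, stood in 7 of 70, where 13.6% of all promoters held it. The shares describe letters in these windows, and starts in RefSeq may lie some bases from those used in the ileum.

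The libraries held 36676963 to 58662617 estimated counts. CD mouse 2 stood apart from the other CD mice. The members' summed share of its counts was 2.90%, where the other 4 CD mice had 1.83% to 2.19%. Its summed enterocyte markers were 14816 TPM (a level per transcript length, scaled to a common total) against 27595 to 30279 TPM, its Paneth cell markers 42966 TPM against 26026 to 37726 TPM, and its mean fragment length 184 bases against 162 to 177 bases. Its summed smooth muscle markers were 1758 TPM against 354 to 1035 TPM, and its neural markers 31.5 TPM against 7.2 to 16.6 TPM. Both were the highest of the 20 libraries. CD mouse 2 was the highest of the 5 CD mice for 77 of the 81 members, and for 35.1% of all genes tested. Counts of members and of gene lists called between the SPF diets are therefore given with and without it.

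The members together took 2.17% ± 0.43 (SD, n = 5) of the counts in CD mice and 2.51% ± 0.07 (SD, n = 5) in TDD mice. In CD mice 1 to 5 the share was 1.83%, 2.90%, 1.93%, 1.99% and 2.19%, and in TDD mice 1 to 5 it was 2.43%, 2.47%, 2.62%, 2.51% and 2.52%. All 5 TDD mice lay above the CD mice other than mouse 2, whose value was the highest of the 20. Without it the CD share was 1.98% ± 0.15 (SD, n = 4). With ABX the share was 2.36%, 2.17%, 2.43%, 2.46% and 2.12% in CD mice (2.31% ± 0.15, SD, n = 5) and 2.70%, 2.64%, 2.61%, 2.77% and 2.59% in TDD mice (2.66% ± 0.07, SD, n = 5), and these ranges did not overlap. By TPM, the share was 5.16% ± 0.77 in CD, 5.86% ± 0.20 in TDD, 5.54% ± 0.23 in CD+ABX and 6.54% ± 0.24 in TDD+ABX mice (SD, n = 5 each). No test was run on these sums. In a bulk tissue, fewer cells of a type and less RNA per cell cannot be told apart.

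**Figure D1:**
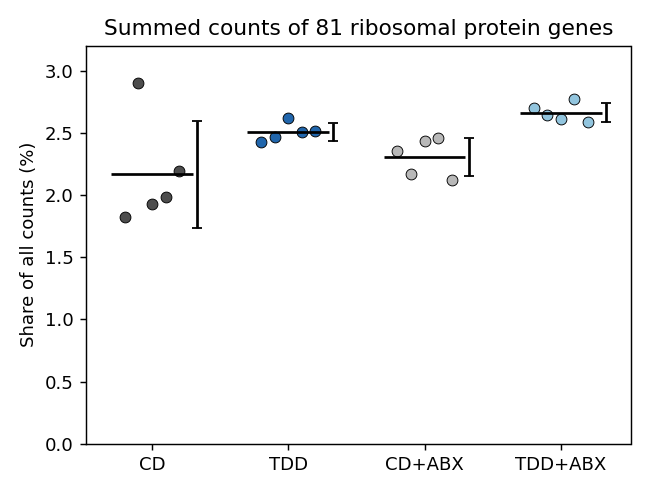
Summed counts of the 81 members as a percentage of all counts in each library, by group. Points are mice, the horizontal line is the mean and the bar beside it the SD (n = 5). CD mouse 2 is the single high point of the CD group at 2.90%, and the CD+ABX mice (up to 2.46%) lie below all TDD+ABX mice (from 2.59%).

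The effect of the diet with an intact microbiota was asked first. TDD feeding raised 51 of the 81 members and lowered 1, Rps27l, in SPF mice (edgeR's quasi-likelihood test, Benjamini-Hochberg adjusted p, called q from here on, under 0.05). Over all 16306 genes tested, 14.4% passed in either direction, 6.7% upwards and 7.73% downwards. The rises were small. The 51 members went up by 1.16 to 1.34-fold, none reached 2-fold in either direction (1.84% of all genes did), and the median log2 fold change over all 81 was 0.26 (1.20-fold), beside 0.01 over all genes tested. Unadjusted p was under 0.05 in 73 members (28.5% of all genes). The estimate was positive in 78 of 81 members (52.7% of all genes), with Rps27l, Rps4l and Rpl7l1 as the exceptions. Both subunits took part: 32 of 48 large-subunit members rose (median log2 fold change 0.26), and 19 of 33 small-subunit members did (median 0.27).

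The count depended on CD mouse 2, on the scaling and on the mice that shared the fit, while the median over members stayed positive in these fits. Without CD mouse 2, 72 members rose and 1 fell where 19.4% of all genes were called, and the members' median was 0.32. Fitted on the CD and TDD mice alone, 14 rose and 1 fell (8.71% of all genes called), and scaled by library totals in place of TMM, 7 rose and 1 fell with nearly the same share of all genes called (2357 of 16306). In 17 members every TDD mouse lay above every CD mouse, and in Rps27l every TDD mouse lay below, where 4.68% and 4.9% of all genes showed such separation upwards and downwards. Against the 4 other CD mice, 68 members lay wholly above (8.45% of all genes) and 1 below (1633 of 16306 genes).

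**Figure D2:**
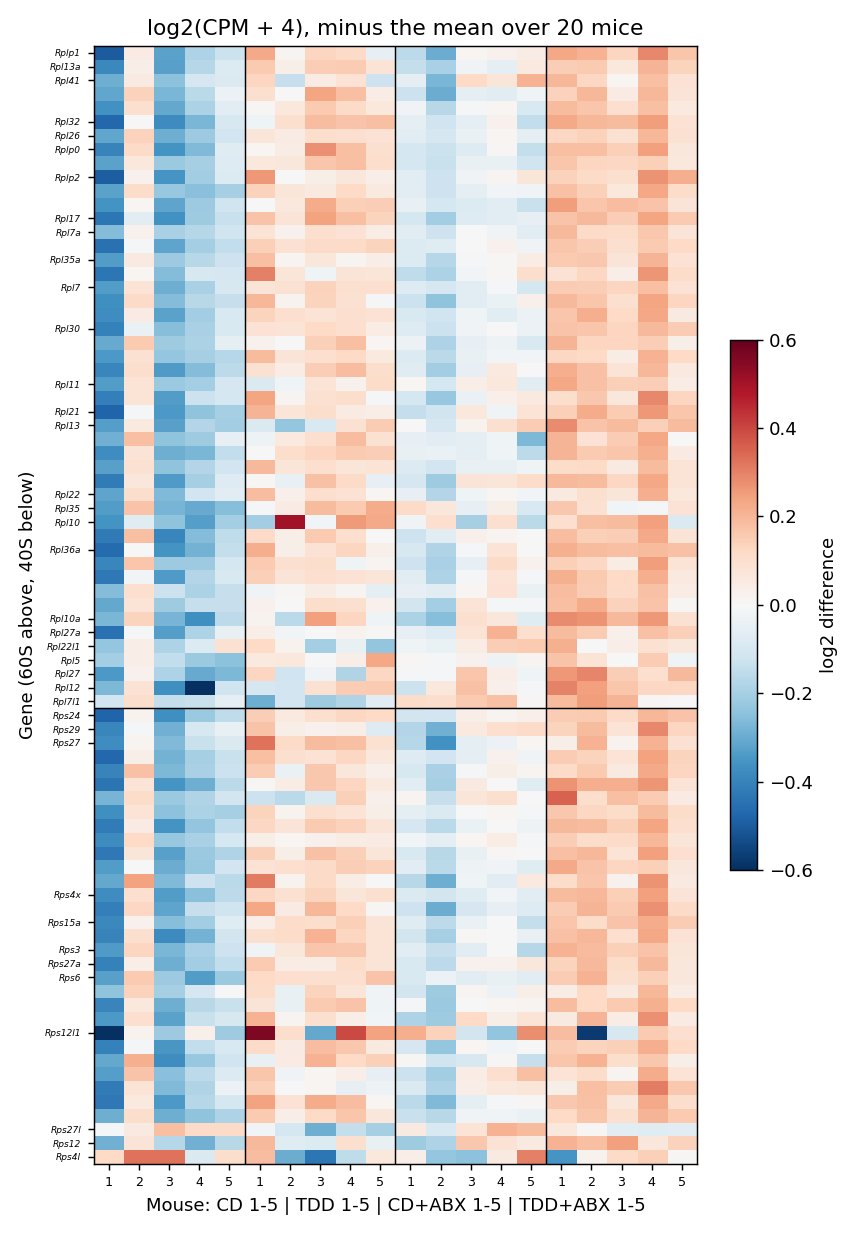
log2(CPM + 4) of each member (rows, large subunit above, small subunit below, each ordered by mean TPM) in each of the 20 mice (columns), minus the member's mean over the mice. Genes named in the text by rule are labelled. The colour scale ends at 0.6 either way; CD mice other than mouse 2 are mostly blue and TDD+ABX mice mostly red, while Rps27l, Rps4l and Rps12l1 do not follow the other rows.

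Among members that rose, Rpl17, a large-subunit protein near the exit of the peptide tunnel, had the smallest q. Its level in CPM (counts relative to the library's total after TMM scaling) was 325, 422, 342, 380 and 401 in CD mice 1 to 5 and 497, 465, 522, 501 and 484 in TDD mice 1 to 5. The groups did not overlap, and the log2 fold change was 0.40 ± 0.06 (SE, q = 0.00047). Rps25, a small-subunit protein, stood at 210, 265, 215, 226 and 245 CPM in CD mice and at 282, 285, 288, 294 and 293 CPM in TDD mice (log2 fold change 0.31 ± 0.06 SE). Its TDD values spanned a far narrower range than its CD values, of which mouse 2 gave the highest. Rpl36a went from 88.1 ± 11.7 to 113 ± 6.32 CPM (SD, n = 5 each; log2 fold change 0.36, q = 0.00339) and Rpl32 from 269 ± 37.2 to 345 ± 21.3 CPM (log2 fold change 0.36, q = 0.00426). Rpl36a values did not overlap between the diets, whereas the highest CD value of Rpl32, 317 CPM in mouse 2, exceeded its lowest TDD value of 311 CPM.

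The member with the largest rise past the threshold was Rpl10, which joins the large subunit late in its assembly (chrX:74270812-74273135, GRCm38). It stood at 148, 181, 161, 151 and 165 CPM in CD mice and at 165, 272, 189, 229 and 225 CPM in TDD mice, a log2 fold change of 0.42 ± 0.11 (SE, q = 0.0142). TDD mouse 2 was far above TDD mouse 1, and the groups overlapped. Near-identical copies, described below, held 68.4% of the combined counts of Rpl10 and its copies. With their counts added, the log2 fold change of Rpl10 was 0.25 (q = 0.0177). The smallest rises that passed were those of Rpl22 (0.21), Rpl7a (0.21), Rpl35a (0.22) and Rpl26 (0.24 on the log2 scale), and with 1 mouse left out at a time these passed in 2, 20, 15 and 15 of 20 fits. With CD mouse 2 left out, the log2 fold changes were 0.44 for Rpl17, 0.36 for Rps25, 0.42 for Rpl36a and Rpl32 and 0.45 for Rpl10, all past the threshold.

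The 3 proteins of the ribosomal stalk, which recruits elongation factors, all rose. Rplp0, the base of the stalk, stood at 705, 1008, 726, 774 and 885 CPM in CD mice and 940, 961, 1127, 1058 and 995 CPM in TDD mice (log2 fold change 0.31 ± 0.08 SE, q = 0.0193). Only CD mouse 2 reached into the TDD range. Rplp1 and Rplp2, which pair on it, changed by 0.30 each on the log2 scale (q = 0.0312 and 0.0202). These calls were less firm than that of Rpl17: leaving out 1 mouse at a time, Rplp0 passed in 17 of 20 fits, Rplp1 in 13 and Rplp2 in 17, whereas Rpl17 passed in all 20. Rps6, a substrate of the kinase downstream of mTORC1, rose from 331 ± 50.2 to 407 ± 8.69 CPM (SD, n = 5 each; log2 fold change 0.30, q = 0.00964), and Rps27a, made as a fusion with ubiquitin, by 0.29 (q = 0.00962). Rps3, at the mRNA entry of the small subunit, rose by 0.25 (q = 0.0307), passing in 13 of 20 fits that left out 1 mouse. Of the proteins that bind 5S rRNA and the p53 regulator Mdm2, Rpl5 rose by 0.26 (q = 0.00857), and Rpl11 had a log2 fold change of 0.17 (q = 0.1), which became 0.23 (q = 0.0104) without CD mouse 2.

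**Figure D3:**
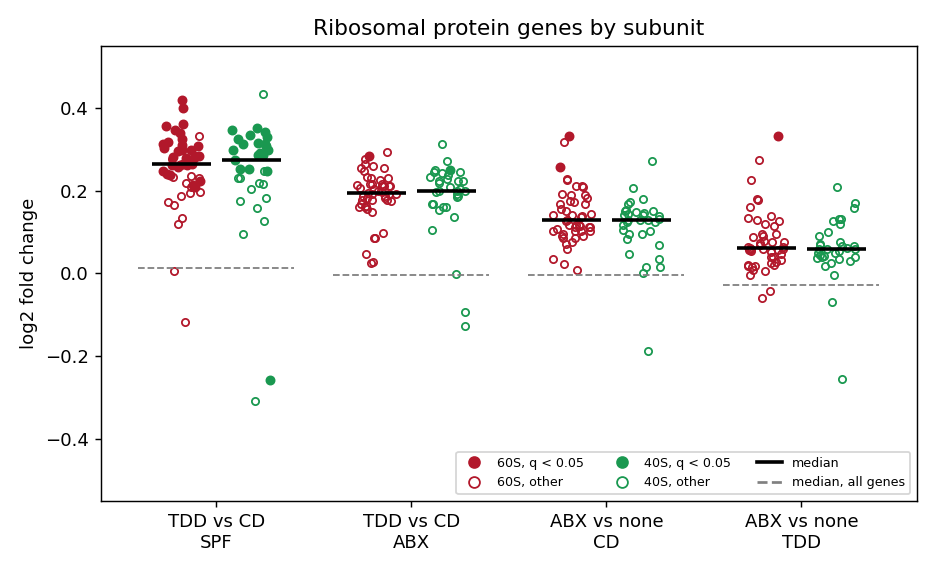
log2 fold change of each of the 81 members in 4 comparisons, large subunit in red and small subunit in green. Filled points passed q under 0.05, black bars are the medians over members and dashed lines the median over all genes tested. Most filled points lie in the SPF diet comparison, and the median of each subunit lies above the dashed line in all 4 comparisons.

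Some members carry the symbol of another one plus l or l1. Rps27l, a paralog of Rps27 known as a p53 target, stood at 56.6, 59.4, 65.3, 62.3 and 62.2 CPM in CD mice and at 56.5, 52.8, 45.9, 51.4 and 49.2 CPM in TDD mice. Every TDD mouse lay below every CD mouse, by a narrow margin, and the log2 fold change was -0.26 ± 0.06 (SE, q = 0.0108). Rps27 itself went from 169 ± 18.2 to 216 ± 14.1 CPM (SD, n = 5 each), 0.35 on the log2 scale (q = 0.00649), also without overlap. Rpl7l1, a paralog of Rpl7 known from assembly of the large subunit, had a log2 fold change of -0.12 (q = 0.253), while Rpl7 rose by 0.26 (q = 0.00963). Rpl22l1 had a log2 fold change of 0.01 (q = 0.972), beside a rise of 0.21 (q = 0.043) for Rpl22, the call that held in 2 of 20 fits. The estimate for Rpl22l1 lay near 0 and turned negative under several settings, down to -0.11 in limma on TPM. Rps27l had -0.28 (q = 0.0116) without CD mouse 2. The difference between paralog and parent was not tested.

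Rps4l and Rps12l1 are annotated as processed pseudogenes in GENCODE M21. For Rps4l (chr6:148354656-148355598) the log2 fold change was -0.31 (q = 0.161), beside a rise of 0.30 (q = 0.00794) for its X-linked parent Rps4x. Rps12l1 (chr7:56014016-56014414) matches Rps12 at 100% identity over 384 bases. It had the largest spread between mice of one group, an SD of 0.29 in log2(CPM + 4) where the median member had 0.11 (next were Rps4l, Rpl10, Rpl12 and Rpl10a, at 0.22, 0.18, 0.16 and 0.15), and gave a log2 fold change of 0.43 (q = 0.105), beside 0.22 (q = 0.137) for Rps12.

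**Figure D4:**
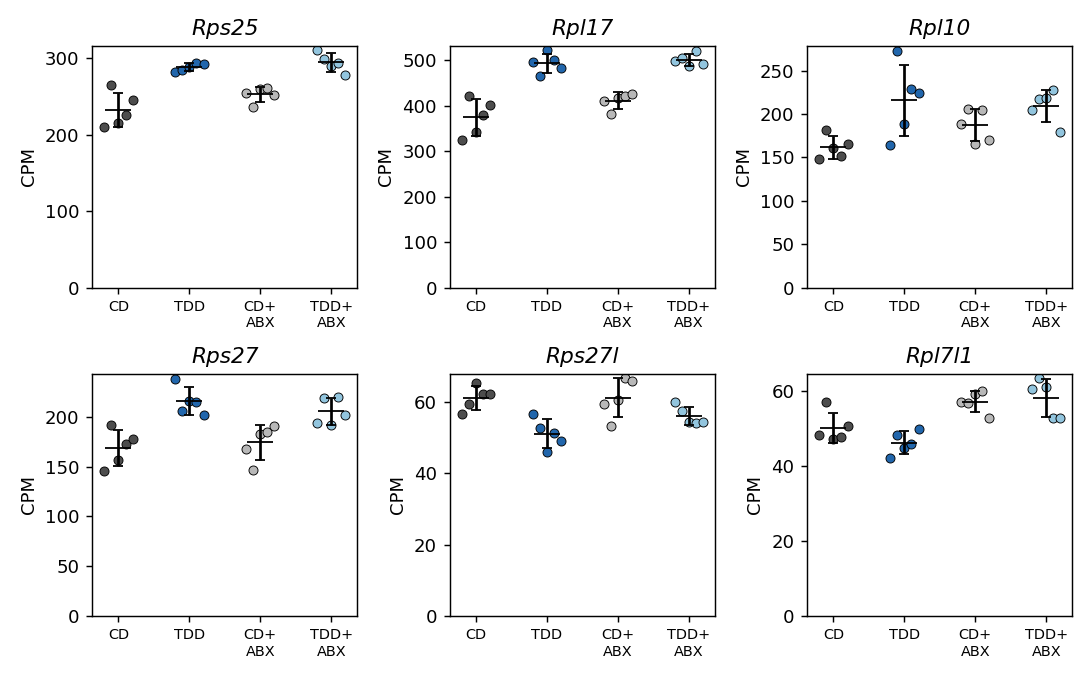
CPM of 6 members in each mouse by group, with the mean and SD (n = 5) as a bar. Rps25, Rpl17 and Rps27 lie higher in TDD than in CD mice, Rps27l lies lower, Rpl10 has 1 high TDD mouse at 272 CPM, and Rpl7l1 lies higher in both ABX groups.

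The same diet comparison in ABX-treated mice asks what remains without a microbiota. Here 2 members rose, Rpl17 and Rps15a, and none fell (q under 0.05), where 1.77% of all genes passed, 0.681% upwards and 1.09% downwards. None reached 2-fold, as 0.331% of all genes did. Unadjusted p was under 0.05 in 64 members (79.0%), beside 14.8% of all genes. The estimate was positive in 78 of 81 (49.2% of all genes) and the median log2 fold change was 0.20 (1.15-fold), beside 0.00 over all genes. In 53 members every TDD+ABX mouse lay above every CD+ABX mouse, and in none did every one lie below, where 2.35% and 2.43% of all genes did so. DESeq2 called 24 members (3.76% of all genes), and without CD mouse 2, which enters this test through the shared estimate of the spread, edgeR called 34 (3.12% of all genes).

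Rpl17 stood at 409, 381, 418, 422 and 426 CPM in CD+ABX mice and at 497, 506, 488, 520 and 491 CPM in TDD+ABX mice (log2 fold change 0.28 ± 0.06 SE, q = 0.0302). Rps15a, a small-subunit protein, stood at 208, 196, 213, 219 and 197 CPM and at 246, 237, 247, 256 and 244 CPM (log2 fold change 0.25 ± 0.06 SE, q = 0.049). Neither gene's groups overlapped. With 1 mouse left out at a time, Rpl17 passed in 11 of 20 fits (q up to 0.0795) and Rps15a in 4 of 20 (q up to 0.105). Next came Rpl30, at 0.22 (q = 0.0553). Rps27l, which fell with TDD under SPF conditions, stood at -0.13 on the log2 scale here (q = 0.369).

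Of the 52 members called in SPF mice, 2 also passed with ABX, and the other estimates kept their sign. The difference between both diet effects was tested as an interaction. No member passed, where 0.0368% of all genes did in edgeR, 0.0184% in each direction and 0.0245% with at least 2-fold. An unadjusted p under 0.05 was found for 2 members (8.9% of all genes), and DESeq2, limma-voom and the other fits run called none either. The estimate was positive in 16 members (48.4% of all genes). The smallest interaction p among members were those of Rpl35, with a diet effect of 0.32 in SPF and 0.05 in ABX-treated mice (interaction -0.27 ± 0.12 SE, q = 0.502), Rps12l1 (-0.53, q = 0.542) and Rpl5 (-0.18, q = 0.582). With the counts of near-identical copies added, the interaction was -0.22 for Rpl35 (q = 0.524) and -0.06 for Rpl5 (q = 0.891). Copies of Rps12l1 were not searched. The median interaction over members was -0.06, -0.12 without CD mouse 2 and 0.05 in limma on log2(TPM + 1), so its sign turned with the scale.

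The antibiotic comparisons share their SPF mice with the diet comparison above. On CD, 2 members were higher with ABX, Rpl27 and Rpl27a, and none lower, where 12.8% of all genes passed, 5.35% upwards and 7.43% downwards. None was at least 2-fold (2.3% of all genes), and 23 had an unadjusted p under 0.05 (26.7% of all genes). The median log2 fold change was 0.13, beside 0.00 over all genes, and 80 of 81 estimates were positive (48.9% of all genes). No member's groups were fully apart, where 3.86% of all genes were so upwards and 5.88% downwards. Without CD mouse 2, 44 members passed, all higher (15.8% of all genes called), the median was 0.21, and 22 members lay wholly above the other 4 CD mice (6.49% of all genes).

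Rpl27 stood at 8.4, 12.0, 9.84, 8.79 and 9.05 CPM in CD mice and 11.6, 11.6, 13.7, 12.2 and 11.5 CPM in CD+ABX mice (log2 fold change 0.33 ± 0.10 SE, q = 0.0334). Rpl27a changed by 0.26 (q = 0.0295). Both share most of their reads with near-identical copies, and with the copies' counts added neither passed (log2 fold changes of 0.08 and 0.17, q = 0.46 and 0.131). Rpl21, next by p, had a log2 fold change of 0.23 (q = 0.0527).

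On TDD, Rpl7l1 was the one member that changed with ABX, and 15.5% of all genes passed, 7.19% upwards and 8.3% downwards. It stood at 42.1, 48.2, 44.8, 45.9 and 49.95 CPM in TDD mice and at 60.6, 63.4, 61.1, 52.8 and 52.7 CPM in TDD+ABX mice, fully apart (log2 fold change 0.33 ± 0.07 SE, q = 0.00349). It passed in all 20 fits that left out 1 mouse. In 3 members, Rpl7l1 and Rpl30 among them, the groups were fully apart upwards, and in none downwards, where 5.97% and 5.05% of all genes were. The median over members was 0.06, beside -0.03 over all genes, 75 of 81 estimates were positive (45.5% of all genes), and 5 members had an unadjusted p under 0.05 (30.6% of all genes). None was at least 2-fold, where 1.67% of all genes were. Rpl13 and Rpl27 came next by p, at 0.23 and 0.27 (q = 0.0646 and 0.0663).

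Per length, the members were among the most abundant transcripts of the ileum. The median member had a mean of 685 TPM over the 20 mice, 75 of 81 exceeded 100 TPM, and 72 were among the 500 genes with the highest TPM. Rplp1 led with 1745 ± 246 TPM (SD, n = 20), next to Rps24 with 1740 ± 223 TPM, which differed by less than that spread. Rpl13a, Rpl41 and Rps29 followed at 1652, 1531 and 1455 TPM. Medians were alike for large-subunit (669 TPM) and small-subunit members (720 TPM). The 90th percentile of the members was 5.24 times the 10th. Their mean transcript length had a median of 724 bases, where the 12739 genes with a mean of at least 100 counts had 2821 bases.

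At the lower end stood Rpl7l1 with 27.4 TPM, Rpl12 with 28.9, Rpl27 with 32.3, Rpl5 with 33.1, Rps4l with 52.1 and Rps12 with 61.4 TPM. For 4 of these the reads were shared with copies. Of the 79 members with an annotated coding sequence, 72 had at least 1 other gene in the deposited files that matched it at 95% identity or more over at least 80% of its length, and these were 521 genes in all. Such copies held 14.6% to 15.4% of the combined counts of members and copies. The copy share was 95.2% for Rps12, 94.99% for Rpl5, 94.4% for Rpl12 and 92.7% for Rpl27, and it exceeded 50% in 9 members and 10% in 22, while 55 had under 1%. The largest copy of each of these 4 was Rps12-ps3, Gm15500, Gm10275 and Rpl27-ps3, each identical to the member in the aligned coding sequence. Their low levels are therefore uncertain.

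**Figure D5:**
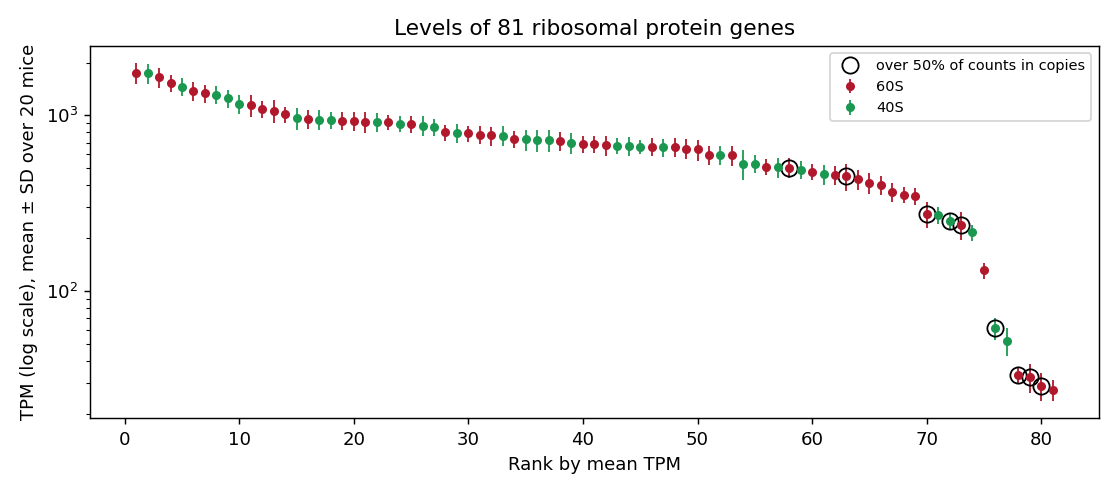
Mean TPM of each member over the 20 mice with its SD, ordered by level on a log scale, large subunit in red and small subunit in green. Circles mark the 9 members with over 50% of their counts in near-identical copies, of which Rps12, Rpl5, Rpl12 and Rpl27 lie among the 6 lowest.

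Adding the copies' counts to the member left the SPF diet result in place and raised 59 members, with Rps27l again the one that fell (2366 of 16301 genes called). Rpl12 then had a log2 fold change of 0.46 (q = 0.00129) where it had 0.33 (q = 0.0608) alone, and Rps12 had 0.33 (q = 0.00695) where it had 0.22 (q = 0.137). Both also passed on their own counts without CD mouse 2 (0.44, q = 0.0063, and 0.29, q = 0.0374). Rpl10 had 0.25 (q = 0.0177) where it had 0.42 alone. The spread of Rpl10 between mice of one group fell from 0.18 to 0.09 on the log2 scale, and in 16 of the 22 members with over 10% of counts in copies the sum varied less than the member alone. Among the 59 other members, 42 rose in SPF mice without any such change. These 59 include Rps4l and Rps12l1, for which no copies were searched.

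Of 5 ribosomal proteins whose symbols the pattern misses, 2 passed and 4 had a positive estimate (3 passed and 5 were positive without CD mouse 2). Rpsa and Rpl36al rose in SPF mice (0.23 and 0.18 on the log2 scale, q = 0.0449 and 0.0478), while Rack1 had 0.20 (q = 0.102) and Fau 0.18 (q = 0.187). Of 22 translation factors and other oligopyrimidine genes, 8 rose and 1, Vim, fell, with a median of 0.09 (9 and 1, median 0.15, without CD mouse 2), where 6.7% of all genes rose and 7.73% fell. The elongation factors were among them: Eef2 rose by 0.33 (q = 0.00173) and Eef1a1 by 0.29 (q = 0.00909), and both passed in ABX-treated mice too, at 0.28 (q = 0.0293) and 0.29 (q = 0.0403). Eif4b rose by 0.24 (q = 0.00522) in SPF mice. Of 50 ribosome biogenesis genes, 3 rose with TDD in SPF mice (Ncl, Rrp9 and Riok1) and Emg1 fell, with a median of 0.20. Without CD mouse 2, 15 rose and 1 fell (median 0.26), where 8.44% of all genes rose. With ABX, 12 were higher on TDD and 11 on CD, beside 7.19% and 5.35% of all genes, and 23 and 21 without CD mouse 2.

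Of 78 mitochondrial ribosomal proteins none rose and 25 fell with TDD in SPF mice (median log2 fold change -0.14), and 53 did not pass. Of 69 respiratory chain genes 15 fell and none rose (median -0.16). Over all genes 6.7% rose and 7.73% fell. In the fit that left out CD mouse 2, 21 and 24 fell (medians -0.13 and -0.18), beside 1777 of 16211 genes. With ABX on TDD, 34 mitochondrial ribosomal proteins were higher and none lower (median 0.18), beside 7.19% of all genes higher. Their difference from the members was not tested. Of 28 genes of amino acid sensing, mTORC1 and the integrated stress response, 5 rose with TDD in SPF mice (Trib3, Asns, Atf5, Ppp1r15a and Eif4ebp3) and 5 fell (Mlst8, Akt1s1, Rptor, Atf4 and Chac1), or 5 and 4 without CD mouse 2. In ABX-treated mice 5 rose and none fell, beside 0.681% and 1.09% of all genes.

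Cell type markers were read beside these values, and no marker was at 0 in any library. With TDD in SPF mice, 4 of 6 plasma cell markers and 2 of 7 Paneth cell markers rose and 1 of 6 goblet cell markers fell, while none of 10 enterocyte, 9 proliferating crypt, 9 B cell, 8 T cell, 8 smooth muscle or 8 neural markers passed. All 9 B cell markers had positive estimates (median log2 fold change 1.26) and all 8 T cell markers negative ones (median -0.49). Estimates were positive for 1 of 9 proliferating crypt markers (median -0.26) and for 8 of 8 neural markers (median 0.21). They were positive for 7 of 10 enterocyte (median 0.05) and 4 of 8 smooth muscle markers (median -0.06). Without CD mouse 2, 1 enterocyte marker rose and 1 fell, 2 T cell markers fell, and the plasma, Paneth and goblet cell counts were as before. With TDD in ABX-treated mice 1 of 7 Paneth cell markers fell and no other marker passed. Medians were 2.77 for B cell markers (9 of 9 positive) and -0.33 for smooth muscle markers (0 of 8 positive). They were 0.07 for proliferating crypt (8 of 9 positive), 0.13 for T cell (7 of 8) and -0.22 for neural markers (1 of 8). Summed B cell markers were 6.55 to 90.8 TPM in CD and 5.58 to 136 TPM in TDD mice. In CD+ABX mice they were 4.23 to 8.68 TPM, and in TDD+ABX mice 1 to 5 they were 12.7, 23.7, 8.17, 5.03 and 113 TPM. Summed plasma cell markers were 395 to 669 TPM in CD and 469 to 861 TPM in TDD mice, and 373 to 473 and 430 to 522 TPM with ABX. Summed Paneth cell markers were 26026 to 42966 TPM in CD, 31098 to 39724 in TDD, 25132 to 43640 in CD+ABX and 22665 to 36686 in TDD+ABX mice. Of the ileal enterocyte genes, Fabp6 ranged from 0.933 to 582 TPM and Slc10a2 from 0.442 to 25.6 TPM over the libraries. With ABX on CD, 5 of 10 enterocyte markers were higher and 1 lower, 7 of 8 T cell markers were lower, and of 6 plasma cell markers 2 were higher and 2 lower. With ABX on TDD, 5 enterocyte markers were higher and 1 lower, and 5 T cell and 2 Paneth cell markers were lower. Of the plasma cell markers 1 was higher and 4 lower. In the same comparison 1 goblet cell and 1 proliferating crypt marker were higher, and 8 of 9 crypt markers had positive estimates (median 0.34). As deviations from group means over the 20 mice, the members' mean log2(CPM + 4) went with the log2 summed enterocyte markers at Pearson's r = -0.63 (Spearman's rho = -0.34) and with Paneth cell markers at r = 0.43 (rho = 0.25). Without CD mouse 2 these were -0.04 (rho = -0.11) and 0.18 (rho = 0.05). Without both CD mouse 2 and CD+ABX mouse 5 they were -0.25 (rho = -0.23) and 0.32 (rho = 0.18). Without CD mouse 2 alone, r was -0.42 for plasma cell (rho = -0.48), -0.39 for smooth muscle and -0.37 for neural markers. B cell markers then had -0.34 (rho = -0.44), proliferating crypt markers -0.13, goblet cell markers 0.25 and T cell markers 0.28. Over the 20 mice, r of these lists ranged from -0.01 (T cell) to 0.17 (plasma cell). Without the 2 mice farthest on each list's own axis, r was -0.47 for plasma cell, 0.25 for smooth muscle and -0.13 for neural markers. In that setting it was 0.24 for B cell, 0.32 for proliferating crypt, 0.02 for goblet cell and -0.07 for T cell markers. These values describe the 9 marker lists, and no p was computed for a mean over selected genes. The part of these cell types in the differences between groups was not tested.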

How the data were processed

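Per the submitters' processing notes, the authors used kallisto 0.44.0 and GRCm38. kallisto splits reads that match several transcripts between them. They deposited estimated counts per gene, given as whole numbers, and a transcript table of estimated counts and TPM for each of the 20 libraries, each taken as 1 mouse. The study's methods name iDEP, with 0.5 CPM as the expression limit and an FDR of 0.05 with at least 2-fold as the call. Which test iDEP ran, and the step from transcripts to genes, were not given in the sources used here. TPM were summed per gene here. Genes that reached 0.5 CPM in 1 or more libraries (16306) were scaled by TMM and tested with edgeR 4.0.16 (R 4.3.3, quasi-likelihood), with all 20 libraries and 4 groups in 1 fit. A gene passed at a Benjamini-Hochberg adjusted p under 0.05 over all genes tested. Groups came from the sample titles. The members and gene lists were chosen with earlier results of these data known. Genes were named by a rule: the 5 highest and 5 lowest fold changes among members that passed in each comparison (or the 3 smallest p where fewer than 3 passed), those at least 2-fold or passing the interaction (or the 3 smallest p), the highest and lowest levels, paralogs beside their parents, 9 members of known role, those nearest the count limit and the 5 with the largest spread. Rps25, Rpl23 and genes of other lists were named after their values were seen, and single values of some genes are not reported here. Copies were found with BLAST 2.17.0 on GENCODE M21 coding sequences (at least 95% identity over at least 80% of the length; 111362 of 113193 transcripts matched that release). Scripts were tested on simulated data. DESeq2 1.42.0, limma 3.58.1 (voom and log2 TPM) and other settings were alternatives. Relative to the count, counting error is largest for Rpl27, Rpl12 and Rps12, whose lowest counts were 305, 567 and 659. It is small for the 78 members with at least 1000 counts in every library, where the spread between mice limits the precision. For members with near-identical copies, that spread also includes any error in how reads were split between them. Same-numbered mice of different groups did not vary together (correlations of their deviations from -0.38 to 0.26), so the numbers were not taken as pairs.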

Additional observations from a re-analysis of the deposited data

Results flagged for a closer look

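With 5 mice a group, a mouse was marked where its gap to the nearest other mouse exceeded 0.71 of the group's range, a limit that chance passes in about 1 of 20 groups. Of 160 groups of values examined, 7 were marked. CD mouse 2 was marked for Rpl35, at 197 CPM against 138 to 146 in the other CD mice, and for Rps6, at 418 CPM against 296 to 321. TDD mouse 5 was marked for Rpl5 (40.05 CPM against 33.6 to 35.1) and for Rps6 (421 CPM against 401 to 407). TDD mouse 1 was marked for Rplp2 (327 CPM against 273 to 286), TDD mouse 3 for the members' summed share of TPM (6.22% against 5.72% to 5.83%), and TDD+ABX mouse 4 for Rpl22 (165 CPM against 147 to 152).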

How the results depend on the processing

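With a 2-fold minimum added, 0 members passed in each comparison. The SPF diet count of 52 members moved to 8 with library totals, 21 and 17 with limma on log2(TPM + 1) and log2(TPM + 0.1), and 15 with only the groups compared. In ABX-treated mice the diet count of 2 became 1 (upper quartile, voom, log2(TPM + 0.1)), 0 (library totals, no filter), 24 (DESeq2), 5 (log2(TPM + 1)), 7 (only the groups compared) and 4 (copies added, an alternative chosen after seeing the data). For ABX on CD the count of 2 became 5 (RLE), 0 (upper quartile, library totals, only the groups compared), 1 (no filter, both TPM settings, copies added, or members with at least 1000 counts), 4 (filter in 5 libraries), 14 (DESeq2) and 6 (fragment length as a covariate). For ABX on TDD the count of 1 became 3 (RLE), 2 (filter in 5 libraries, fragment length), 5 (DESeq2), 8 and 6 (log2(TPM + 1) and log2(TPM + 0.1)) and 4 (only the groups compared). Over all genes, 14.5% were called for the SPF diet with library totals and 8.71% with only the groups compared, beside 14.4% as reported. For the diet in ABX-treated mice the share was 3.76% with DESeq2 and 1.66% with only the groups compared. For ABX on CD these shares were 16% and 9.11%, and for ABX on TDD 19.9% and 15.9%. In the order of comparisons above, the share was 19.4%, 3.12%, 15.8% and 19.7% without CD mouse 2. It was 14.5%, 1.79%, 12.7% and 15.5% with copies added. With library totals it was 1.75%, 11.7% and 13% in the last 3 comparisons. Shares for the other settings are not given in this section, so those counts cannot be set against all genes. The interaction count was 0 throughout. With the replicate block, the counts were 42, 0, 2, 1 and 0 in the same order, though the pairing has no basis in these data, where 0 to 2 of 5 same-numbered pairs a comparison correlated above 0.1. Leaving out single mice gave 38 to 73, 0 to 34, 0 to 44, 1 to 5 and 0 to 0 members, each highest without CD mouse 2 except the last. The summed share moved from 2.17%, 2.51%, 2.31% and 2.66% (CD, TDD, CD+ABX, TDD+ABX) to 5.16%, 5.86%, 5.54% and 6.54% as a share of TPM. With the ribosomal proteins that the pattern misses it was 2.68%, 2.47% and 2.85% in the last 3 groups, and outside mitochondrially encoded genes 2.71%, 2.48% and 2.84%. Leaving out single mice gave 1.98% to 2.25%, 2.48% to 2.53%, 2.27% to 2.36% and 2.64% to 2.68%. The ratio of the 90th to the 10th percentile of levels was 5.85 by CPM per kilobase. Of 43 results for single members, 1 reversed in sign: the SPF diet value of Rpl22l1, 0.01 as reported, was -0.045 with library totals, -0.0037 with members left out of the scaling, -0.0050 without a filter, -0.0049 with the filter in 5 libraries, -0.11 with either TPM setting and -0.051 with fragment length, and lay between -0.048 and 0.051 when single mice were left out. Among these 43 results, the settings and dropped mice together lost a call 185 times and gained a call 39 times with the sign kept. Beyond the settings that drop mice or the shared fit, the cause of these moves was not tested.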
